A study of Mus musculus with 12 samples.

Results

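The genes described here are the Wnt ligands, their receptors and co-receptors, their secreted inhibitors, the R-spondin system and a set of pathway targets, followed in 4 cell populations sorted from the newborn mouse aorta. Members were taken by gene symbol: the Wnt, Fzd, Sfrp, Dkk, Rspo and Lgr families and a fixed set of single genes. This gave 58 members of 36512 genes in the count table, made up of 19 ligands, 10 Frizzled receptors, 5 co-receptors, 11 secreted inhibitors, 8 genes of the R-spondin system and 5 feedback or transcription genes. Poly(A) RNA was sequenced in bulk from the aorta with its perivascular fat, the fat depot wrapped around the vessel, after digestion and flow cytometry. All 4 populations came from CD-1 wild-type pups of 3 days of age, of mixed sex, with no transgene or treatment named: smooth muscle, preadipocyte, intermediate and progenitor, with 3 libraries each. The gates that defined the populations, and whether the replicates came from separate litters or sorts, are not stated in the labels. The p-values therefore cover the spread among 3 libraries a population, which may be technical.

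Wnt proteins are secreted, lipid-modified signals. With a Frizzled receptor and the co-receptors Lrp5 or Lrp6 they stabilise beta-catenin, which acts with TCF/LEF factors on target genes. Ligands such as Wnt5a can instead signal through Ror and Ryk receptors without beta-catenin. In fat tissue the beta-catenin branch is known mainly as a brake on adipocyte formation, and in the vessel wall Wnt signals are known for roles in smooth muscle growth and development.

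Libraries held 11701825 to 17123109 counts, and a count of 0 allows a level of up to 0.175 to 0.256 CPM by library size (CPM, counts scaled to a common library total, with the limit taken as 3 counts), for counting error only. That limit is before TMM scaling, so it is only roughly on the scale of the levels below. The TMM factors were 0.823 to 1.20. Levels below are CPM after TMM scaling, given per library or as mean ± SD (n = 3), and fold changes are log2 ± SE. Tests were edgeR's quasi-likelihood tests, with p adjusted by Benjamini-Hochberg over 21285 genes and calls at an adjusted p under 0.05. Summed marker lists followed the labels. A list of 6 smooth muscle markers summed to 7010 to 7590 CPM in smooth muscle libraries, against up to 182 CPM in preadipocyte and 45.8 CPM in progenitor libraries. For 6 adipocyte markers the sum was 3090 to 4982 CPM in preadipocyte libraries, and up to 63.5 CPM in smooth muscle, 91.0 in intermediate and 393 in progenitor libraries. For 6 progenitor markers it was 3882 to 4414 CPM in progenitor libraries, and up to 343 CPM in smooth muscle and 307 in preadipocyte libraries. Of these, Dpp4 averaged 76.6 CPM in smooth muscle and 93.2 CPM in progenitor libraries, which did not differ in the test (adjusted p = 0.26). Intermediate libraries held 752 to 1087 CPM of the smooth muscle list, 1260 to 1470 CPM of a pericyte list and 888 to 913 CPM of the progenitor list. The pericyte list was higher in smooth muscle libraries, at 1659 to 2001 CPM. It summed to 86.6 to 149 CPM in preadipocyte and 446 to 504 CPM in progenitor libraries. Smooth muscle libraries also held markers of other cells. There, 6 mesothelial markers (Msln, Upk3b and others) summed to 1110 to 1500 CPM, against 14.7 to 59.7 CPM in preadipocyte, 21.4 to 83.4 CPM in intermediate and 87.7 to 194 CPM in progenitor libraries. All 6 had a mean of at least 1 CPM in every population. A list of 6 neuron markers (Dbh, Th and others) summed to 736 to 1003 CPM in smooth muscle libraries. A mean of at least 1 CPM was reached by 6 of them in smooth muscle, 6 in preadipocyte, 5 in intermediate and 1 in progenitor libraries. The neuron sum was 78.5 to 129 CPM in preadipocyte, 11.0 to 25.8 CPM in intermediate and 7.14 to 9.10 CPM in progenitor libraries. Of a Schwann cell list, 6 of 6 markers had a mean of at least 1 CPM in smooth muscle libraries and 3 in each other population. The list summed to 171 to 214 CPM in smooth muscle libraries, against up to 37.1 CPM in preadipocyte, up to 21.1 CPM in intermediate and up to 23.8 CPM in progenitor libraries. An endothelial list summed to 127 to 147 CPM in progenitor libraries. It reached 94.6 CPM in smooth muscle, 96.6 CPM in preadipocyte and 80.3 CPM in intermediate libraries. Preadipocyte replicate 3 stood apart with 1.84% haemoglobin counts.

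Of the 58 members, 48 had enough counts to be tested, and 45 of these 48 (93.8%) differed among the 4 populations, against 79.8% of all genes tested. The 3 that did not pass were Fzd7, Lgr4 and Fzd9. Smooth muscle libraries had the highest mean of 21 of the 48 tested members (43.8%, against 35.3% of all genes) and intermediate libraries of 15 (31.2%, against 16.7%). Progenitor libraries were highest for 10 (20.8%, against 18.4%). Preadipocyte libraries were highest for 2 members, Wif1 and Lgr4 (4.17%, against 29.6%), and lowest for 26 (54.2%, against 37.0%). With library size alone as the scaling, preadipocyte libraries were highest for 3 and lowest for 21 members, and with DESeq2-type size factors for 4 and 24.

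In pairs, 30 of 48 members (62.5%) were higher in smooth muscle than in preadipocyte libraries, where 40.7% of all genes tested were higher. In contrast, 4 (8.33%) were lower, against 25.9% of all genes (5510 of 21285). This count was 7 without preadipocyte replicate 3, without any single intermediate library or without progenitor replicate 2. The background moved as well. Without preadipocyte replicate 3, 5783 of 23245 genes were lower. Without an intermediate library or progenitor replicate 2 it was 7076 to 7185 of 23320 to 23441 genes. In the fit to all libraries the median log2 fold change of the members was 1.35, against 0.35 over all genes. Between smooth muscle and progenitor libraries, 26 members (54.2%) were higher and 14 (29.2%) lower, against 30.5% and 23.6% of all genes, and with library size alone as the scaling 30 were higher and 9 lower, where 9683 of all 21285 genes were higher and 2015 lower. Between smooth muscle and intermediate libraries, 15 (31.2%) were higher and 13 (27.1%) lower, against 15.7% and 13.1%. With library size alone 25 were higher and 8 lower there, where 9321 of all genes were higher and 1133 lower. Of the 48 tested members, 4 (Wnt16, Wnt7a, Wnt7b and Dkk1) passed the low-count filter only through the smooth muscle libraries and 2 (Wnt10b and Wnt1) only through the progenitor libraries. That they were higher there is fixed by the filter and is no support for the counts.

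Preadipocyte libraries had fewer higher members than the background. Against intermediate libraries 6 members (12.5%) were higher and 23 (47.9%) lower, where all genes gave 26.0% and 31.1%, and the median log2 fold change was -0.68, against -0.24 over all genes. The count of 6 was 3 without preadipocyte replicate 1, where 5552 of 23255 genes were higher. It was 2 without preadipocyte replicate 2, where 5253 of 23346 genes were higher. Against progenitor libraries 8 (16.7%) were higher and 25 (52.1%) lower, where all genes gave 25.1% and 25.9%. Between intermediate and progenitor libraries 16 members (33.3%) were higher and 10 (20.8%) lower, against 14.1% and 13.4% of all genes. The 6 comparisons share libraries, so they are not independent of each other. In bulk samples fewer cells of a type and less RNA per cell cannot be told apart. The bar chart of calls sets each pair beside its background.

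**Figure D1:**
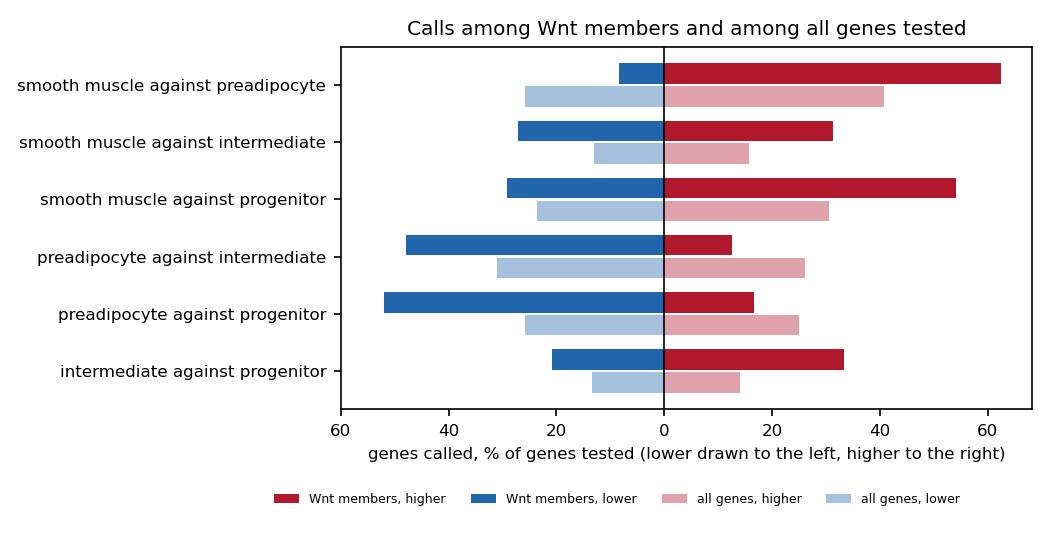
Share of genes called higher (bars to the right, red) or lower (bars to the left, blue) in each pair of populations, in percent of genes tested, for the 48 Wnt members tested (dark) and for all 21285 genes tested (pale). In smooth muscle against preadipocyte libraries 62.5% of members were higher, against 40.7% of all genes, and in preadipocyte against progenitor libraries 52.1% of members were lower, against 25.9%.

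Promoter windows of 300 bases, from 250 before to 50 after the gene start (RefSeq, GRCm38.p6), were held for 39 of the 58 members. The sequences of 4 are shown because these genes gave some of the widest contrasts below: Frzb and Ror1, low in preadipocyte libraries, Lgr6, high in smooth muscle libraries, and Dkk2, high in progenitor libraries. Each is printed 5′ to 3′ on the gene's strand. Capitals mark CTTTGA or its reverse complement TCAAAG, the only form of the TCF/LEF core that was searched. Both strands were searched, with no other motif overlapping the marked one.
Frzb (chr2:80447347-80447646, minus strand): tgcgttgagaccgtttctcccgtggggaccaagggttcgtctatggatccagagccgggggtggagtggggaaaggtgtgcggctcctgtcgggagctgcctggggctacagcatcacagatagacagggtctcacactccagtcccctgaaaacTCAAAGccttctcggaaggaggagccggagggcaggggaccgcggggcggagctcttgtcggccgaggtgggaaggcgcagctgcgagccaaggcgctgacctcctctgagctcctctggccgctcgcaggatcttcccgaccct
Ror1 (chr4:100095541-100095840, plus strand): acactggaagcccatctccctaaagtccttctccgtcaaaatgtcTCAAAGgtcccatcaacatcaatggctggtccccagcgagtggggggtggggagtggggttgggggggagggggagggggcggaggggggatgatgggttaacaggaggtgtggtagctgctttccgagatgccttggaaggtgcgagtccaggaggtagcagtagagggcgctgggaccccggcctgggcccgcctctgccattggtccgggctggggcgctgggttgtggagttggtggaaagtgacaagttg
Lgr6 (chr1:135105227-135105526, minus strand): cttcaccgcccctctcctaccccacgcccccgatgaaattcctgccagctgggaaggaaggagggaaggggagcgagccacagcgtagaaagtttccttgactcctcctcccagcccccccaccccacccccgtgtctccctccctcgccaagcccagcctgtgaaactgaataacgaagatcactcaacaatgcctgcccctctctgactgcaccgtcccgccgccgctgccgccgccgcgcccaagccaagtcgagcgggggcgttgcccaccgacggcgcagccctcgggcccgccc
Dkk2 (chr3:132085042-132085341, plus strand): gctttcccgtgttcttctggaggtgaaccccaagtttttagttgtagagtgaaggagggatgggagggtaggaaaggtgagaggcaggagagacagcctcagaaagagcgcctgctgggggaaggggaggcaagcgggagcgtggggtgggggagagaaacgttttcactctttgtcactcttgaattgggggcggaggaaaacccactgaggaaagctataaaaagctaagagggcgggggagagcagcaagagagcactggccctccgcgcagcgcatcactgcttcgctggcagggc
Frzb and Ror1 each held 1 core of this form in the window, and Lgr6 and Dkk2 held 0 of this form. Over the members, 7 of 46 windows (15.2%) held the core, in Dkk1, Frzb, Fzd1, Lef1, Ror1, Wnt11 and Wnt5b. Of 32851 windows of the same length over all genes, 16% held it, a share close to that of the members.

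Among the ligands, the populations were led by different genes. Progenitor libraries were highest for Wnt5a, Wnt2, Wnt11 and Wnt9a, intermediate libraries for Wnt5b, and smooth muscle libraries for Wnt4 and Wnt6, while preadipocyte libraries were low for most. Wnt5a (chr14:28504750-28527448), the best known ligand of the branch without beta-catenin, had 23.4, 25.0 and 33.0 CPM in the smooth muscle libraries, 31.2, 36.2 and 21.2 CPM in the preadipocyte libraries, 98.7, 108 and 109 CPM in the intermediate libraries and 221, 224 and 242 CPM in the progenitor libraries. Progenitor libraries lay above all others and intermediate libraries above the remaining 6, and the smooth muscle and preadipocyte libraries overlapped. The log2 fold change was -3.08 ± 0.19 (adjusted p = 3.4e-09) for smooth muscle against progenitor and -1.12 ± 0.17 (adjusted p = 0.00023) for intermediate against progenitor. Its exons overlap those of a gene on the other strand, and the labels do not say whether counting used strand.

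Wnt2 (chr6:17988940-18030585), a ligand of the beta-catenin branch known from lung development, had 4.02, 6.23 and 6.92 CPM in the smooth muscle libraries, 0.378, 0.242 and 0.891 CPM in the preadipocyte libraries, 3.74, 3.91 and 4.72 CPM in the intermediate libraries and 31.0, 36.1 and 21.4 CPM in the progenitor libraries. Every progenitor library was above every other library, and the preadipocyte libraries were below all the rest. Its log2 fold change was -5.84 ± 0.37 (adjusted p = 4.4e-09) for preadipocyte against progenitor, the widest of any ligand in that comparison. Wnt11, known for cell movements and planar polarity, had 15.2, 17.7 and 23.2 CPM in the smooth muscle libraries, 22.7, 26.1 and 17.0 CPM in the preadipocyte libraries, 20.8, 19.2 and 22.1 CPM in the intermediate libraries and 56.7, 63.2 and 50.6 CPM in the progenitor libraries. It was higher in progenitor libraries than in each other population, where libraries overlapped, with a log2 fold change of -1.60 ± 0.18 (adjusted p = 3.7e-06) for smooth muscle against progenitor. Wnt9a, known from joint formation, had 22.5, 21.5 and 21.8 CPM in the smooth muscle libraries, 2.48, 3.87 and 1.89 CPM in the preadipocyte libraries, 16.8, 17.3 and 21.9 CPM in the intermediate libraries and 38.3, 32.2 and 37.9 CPM in the progenitor libraries. Progenitor libraries again lay above all others and preadipocyte libraries below them, at -3.72 ± 0.22 (adjusted p = 2.5e-09) for preadipocyte against progenitor.

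Wnt5b (chr6:119432531-119544347), the close relative of Wnt5a, followed another order. It had 35.3, 32.7 and 33.7 CPM in the smooth muscle libraries, 5.78, 5.20 and 4.01 CPM in the preadipocyte libraries, 51.5, 49.8 and 51.1 CPM in the intermediate libraries and 13.4, 15.2 and 13.2 CPM in the progenitor libraries. All 4 populations were apart, with intermediate libraries highest and preadipocyte libraries lowest. The log2 fold change was -3.34 ± 0.16 (adjusted p = 1.8e-10) for preadipocyte against intermediate and 1.87 ± 0.15 (adjusted p = 2.8e-07) for intermediate against progenitor, the sign opposite to that of Wnt5a. Against smooth muscle the intermediate libraries differed by less, at -0.58 ± 0.14 (adjusted p = 0.0048) for smooth muscle against intermediate, and this call was lost with library size alone as the scaling, at -0.10.

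Wnt4, known from kidney and reproductive tract development, had 8.97, 9.16 and 13.1 CPM in smooth muscle, 6.80, 4.29 and 2.90 CPM in preadipocyte, 5.70, 3.91 and 5.27 CPM in intermediate and 3.96, 4.31 and 5.29 CPM in progenitor libraries. Smooth muscle libraries were above all others, at 1.20 ± 0.29 (adjusted p = 0.0027) against progenitor, and the call was lost without progenitor replicate 2, at 0.81 (adjusted p = 0.055). No pair among the other 3 populations passed the test. Wnt6 had 4.59, 4.39 and 6.08 CPM in smooth muscle, 1.08, 0.725 and 0.613 CPM in preadipocyte, 1.25, 1.28 and 1.54 CPM in intermediate and 1.32, 1.09 and 1.005 CPM in progenitor libraries. It too was above all others in smooth muscle libraries, with a log2 fold change of 2.13 ± 0.29 (adjusted p = 2.4e-05) against progenitor. Wnt2b, a relative of Wnt2, had 8.75, 9.29 and 7.42 CPM in smooth muscle, 1.08, 0.484 and 1.06 CPM in preadipocyte, 4.46, 7.37 and 5.18 CPM in intermediate and 7.99, 7.11 and 6.77 CPM in progenitor libraries. It was low in the preadipocyte libraries alone, at 3.26 ± 0.29 (adjusted p = 1.3e-07) for smooth muscle against preadipocyte, and none of the 3 pairs among the other populations passed the test.

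**Figure D2:**
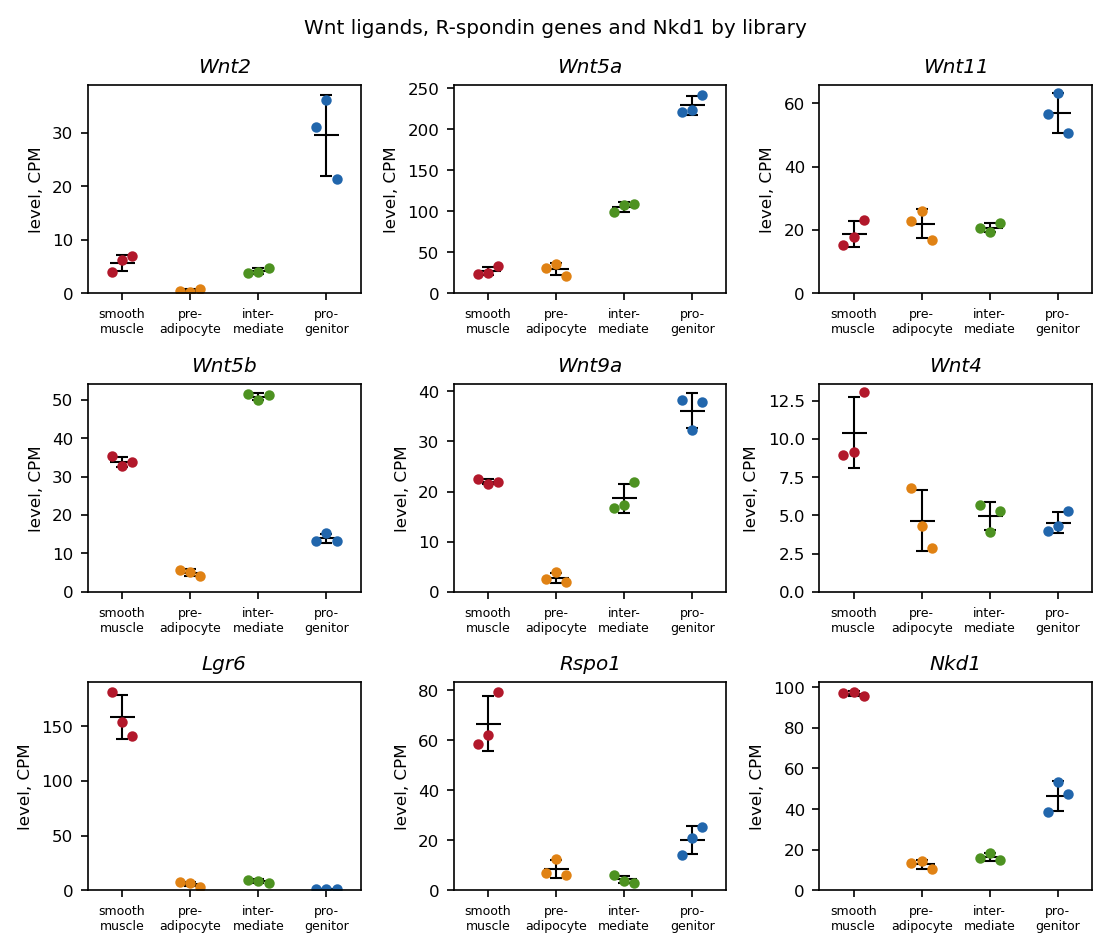
Levels of 6 Wnt ligands, the R-spondin receptor Lgr6, the R-spondin Rspo1 and the feedback gene Nkd1 in CPM after TMM scaling. Points are the 3 libraries of each population, bars the mean and its SD. Wnt5a, Wnt2, Wnt11 and Wnt9a peaked in progenitor, Wnt5b in intermediate, and Wnt4, Lgr6, Rspo1 and Nkd1 in smooth muscle libraries.

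By role, 9 of 13 tested ligands were higher and 0 lower in smooth muscle than in preadipocyte libraries, and 0 were higher and 9 lower in preadipocyte than in progenitor libraries. Of all genes, 40.7% were higher and 25.9% lower in the first of these comparisons and 25.1% and 25.9% in the other. The 9 ligands higher in smooth muscle libraries include Wnt16, Wnt7a and Wnt7b, and the 9 lower in preadipocyte than in progenitor libraries include Wnt10b and Wnt1, which reached the test only through the population where they are high. The smooth muscle against preadipocyte counts were the same with DESeq2-type factors and with library size alone. Between intermediate and progenitor libraries 2 ligands were higher and 5 lower, against 14.1% and 13.4% of all genes. Summed per kilobase of exon, the 19 ligands came to 40.5 ± 2.77 CPM per kb in smooth muscle, 14.2 ± 2.74 in preadipocyte, 49.3 ± 2.06 in intermediate and 77.4 ± 3.14 in progenitor libraries. Shares of this sum do not depend on the scaling. Wnt5b made up 31.6% ± 2.52 of it in smooth muscle, 13.3% ± 0.955 in preadipocyte, 38.9% ± 1.76 in intermediate and 6.76% ± 0.303 in progenitor libraries. The share of Wnt5a was 8.51% ± 1.02 in smooth muscle, 26.4% ± 2.25 in preadipocyte, 27.3% ± 0.823 in intermediate and 38.0% ± 3.29 in progenitor libraries. In preadipocyte libraries Wnt11 held the largest share, 37.3% ± 2.004, of a low sum.

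**Figure D3:**
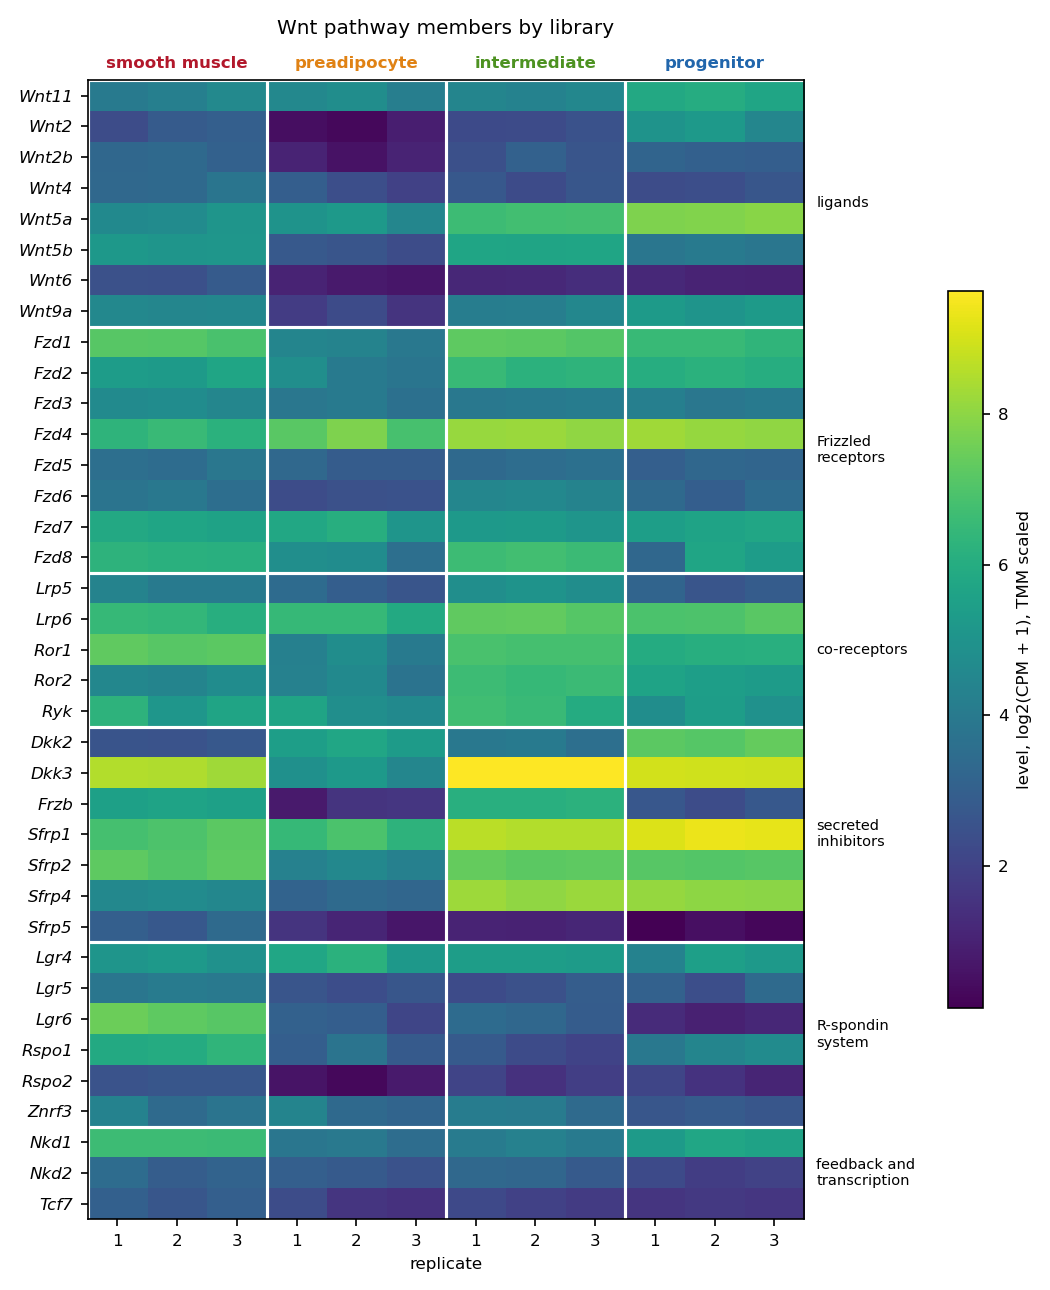
Levels of the 37 members with a mean of at least 5 CPM in at least 1 population, as log2(CPM + 1) after TMM scaling, with genes in rows by role and the 12 libraries in columns. Preadipocyte columns are dark in most rows, Lgr6 is bright in smooth muscle columns alone, and Sfrp4 is bright in intermediate and progenitor columns.

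Frizzled receptors, the membrane receptors that bind Wnts, were found in every population in a different mix. Fzd1 (chr5:4753839-4758035), a receptor of the subfamily that also holds Fzd2 and Fzd7, had 143, 139 and 117 CPM in the smooth muscle libraries, 20.5, 19.6 and 14.1 CPM in the preadipocyte libraries, 154, 149 and 134 CPM in the intermediate libraries and 91.0, 91.1 and 79.0 CPM in the progenitor libraries. Smooth muscle and intermediate libraries overlapped and lay above the progenitor and preadipocyte libraries, with a log2 fold change of 2.88 ± 0.16 (adjusted p = 8e-10) for smooth muscle against preadipocyte. Fzd4 (chr7:89404355-89413134), known as the receptor for norrin in retinal vessels, ran the other way. It had 78.7, 92.9 and 72.6 CPM in the smooth muscle libraries, 145, 223 and 116 CPM in the preadipocyte libraries, 284, 294 and 267 CPM in the intermediate libraries and 305, 281 and 266 CPM in the progenitor libraries. Smooth muscle libraries were the lowest, intermediate and progenitor libraries the highest, and the log2 fold change was -1.80 ± 0.19 (adjusted p = 1.6e-06) for smooth muscle against progenitor. Intermediate against progenitor gave -0.01 ± 0.18, which did not pass the test.

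Fzd2 had 40.7, 38.0 and 50.9 CPM in smooth muscle, 27.3, 15.3 and 13.0 CPM in preadipocyte, 90.9, 73.5 and 78.7 CPM in intermediate and 65.2, 72.6 and 65.1 CPM in progenitor libraries, with preadipocyte libraries below all others and a log2 fold change of -2.13 ± 0.22 (adjusted p = 7.5e-07) for preadipocyte against intermediate. Fzd6, known from planar polarity in skin, had 12.6, 14.1 and 10.8 CPM in smooth muscle, 4.05, 4.47 and 4.62 CPM in preadipocyte, 21.0, 22.6 and 19.8 CPM in intermediate and 9.31, 6.84 and 9.78 CPM in progenitor libraries. Its 4 populations did not overlap, with intermediate libraries highest, at -2.27 ± 0.19 (adjusted p = 4.9e-08) for preadipocyte against intermediate. Fzd8 had 75.5, 70.4 and 69.0 CPM in smooth muscle, 27.3, 25.9 and 11.1 CPM in preadipocyte, 99.0, 106 and 96.8 CPM in intermediate and 8.77, 51.4 and 39.9 CPM in progenitor libraries. Intermediate libraries were above all others, and the progenitor libraries were uneven, with replicate 1 far under the other two. Smooth muscle against preadipocyte gave 1.74 ± 0.43 (adjusted p = 0.0023). Smooth muscle against progenitor gave 1.10 ± 0.42 (adjusted p = 0.037), a call lost without progenitor replicate 1, at 0.61 (adjusted p = 0.072), without any single intermediate library, at 0.74, and without any single smooth muscle library.

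The remaining Frizzled genes varied less. Fzd3 averaged 23.8 ± 2.24 CPM in smooth muscle, 13.4 ± 1.81 CPM in preadipocyte, 15.1 ± 1.05 CPM in intermediate and 15.5 ± 1.96 CPM in progenitor libraries, above all others in smooth muscle at 0.62 ± 0.16 (adjusted p = 0.0042) against progenitor, but 0.18 to 0.26 with no call without any single intermediate library or without progenitor replicate 2. Fzd5 averaged 11.6 ± 1.92 CPM in smooth muscle, 7.20 ± 1.48 CPM in preadipocyte, 10.4 ± 0.962 CPM in intermediate and 7.99 ± 0.931 CPM in progenitor libraries, at 0.69 ± 0.20 (adjusted p = 0.0063) for smooth muscle against preadipocyte, and 0.37 with no call when any of the same 4 libraries was left out. Fzd7 averaged 51.7 ± 4.52 CPM in smooth muscle, 51.6 ± 17.2 CPM in preadipocyte, 36.4 ± 3.12 CPM in intermediate and 47.5 ± 5.18 CPM in progenitor libraries. No difference among the 4 populations passed for Fzd7 in the overall test, and preadipocyte against intermediate was 0.50 ± 0.20 (adjusted p = 0.043), a call lost without preadipocyte replicate 2, at 0.28 (adjusted p = 0.23), and without preadipocyte replicate 1, intermediate replicate 3 or smooth muscle replicate 1 or 2. It was 0.76 without preadipocyte replicate 3. By role, 6 of 9 tested Frizzled genes were higher and 1 lower in smooth muscle than in preadipocyte libraries, against 40.7% and 25.9% of all genes. In smooth muscle against intermediate libraries 1 was higher and 3 lower, against 15.7% and 13.1% of all genes. With library size alone 4 were higher and 1 lower there, where 9321 of all 21285 genes were higher and 1133 lower. Per kilobase, Fzd1 made up 37.0% ± 2.18 of the Frizzled sum in smooth muscle, 8.46% ± 1.09 in preadipocyte, 26.4% ± 0.614 in intermediate and 20.3% ± 1.34 in progenitor libraries. Fzd4 made up 14.2% ± 1.49 in smooth muscle, 46.0% ± 5.94 in preadipocyte, 31.9% ± 0.830 in intermediate and 41.5% ± 3.42 in progenitor libraries.

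Co-receptors were lowest or near lowest in preadipocyte libraries, and all 5 were lower there than in intermediate libraries, under each scaling tried, where 31.1% of all genes were lower. Ror1 (chr4:100095791-100444765), a receptor tyrosine kinase that binds Wnt5a, had 158, 139.9 and 151 CPM in the smooth muscle libraries, 18.3, 26.4 and 15.3 CPM in the preadipocyte libraries, 117, 113 and 111 CPM in the intermediate libraries and 61.6, 67.0 and 69.1 CPM in the progenitor libraries. Smooth muscle libraries lay above all others and preadipocyte libraries below them, at 2.90 ± 0.17 (adjusted p = 1.7e-09) for smooth muscle against preadipocyte and 1.18 ± 0.16 (adjusted p = 2.2e-05) against progenitor, while smooth muscle against intermediate did not pass (0.40 ± 0.16 (adjusted p = 0.074)). Ror2 (chr13:53109312-53286124), its relative, had 21.7, 19.9 and 25.8 CPM in the smooth muscle libraries, 18.7, 23.7 and 12.3 CPM in the preadipocyte libraries, 98.4, 88.0 and 95.0 CPM in the intermediate libraries and 48.7, 42.6 and 39.5 CPM in the progenitor libraries. Here intermediate libraries were above all others and progenitor libraries next, at -2.06 ± 0.20 (adjusted p = 8.4e-07) for smooth muscle against intermediate. Smooth muscle and preadipocyte libraries overlapped for Ror2.

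Lrp5, a co-receptor of the beta-catenin branch, had 19.6, 14.8 and 14.9 CPM in smooth muscle, 9.88, 6.65 and 5.12 CPM in preadipocyte, 27.2, 30.6 and 26.4 CPM in intermediate and 8.07, 5.13 and 6.36 CPM in progenitor libraries. Intermediate libraries were above all others, at 2.11 ± 0.24 (adjusted p = 1.2e-05) against progenitor. Lrp6, the other co-receptor of that branch, had 88.9, 85.2 and 66.6 CPM in smooth muscle, 88.4, 87.5 and 57.6 CPM in preadipocyte, 156, 160.1 and 137 CPM in intermediate and 119.7, 125 and 143 CPM in progenitor libraries. Intermediate and progenitor libraries lay above the smooth muscle and preadipocyte libraries, at -0.91 ± 0.17 (adjusted p = 0.00056) for smooth muscle against intermediate, and -0.42 with library size alone. Ryk, a kinase-like receptor, averaged 53.1 ± 21.1 CPM in smooth muscle, 33.3 ± 14.1 CPM in preadipocyte, 85.9 ± 22.2 CPM in intermediate and 32.2 ± 7.78 CPM in progenitor libraries, with wide spread, and intermediate against progenitor gave 1.42 ± 0.31 (adjusted p = 0.004).

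Secreted inhibitors, which keep Wnts or their co-receptors from signalling, included several of the widest contrasts. The Sfrp genes and Frzb encode decoys that share the Wnt-binding domain of the Frizzled receptors. Sfrp4 (chr13:19623104-19632994) had 22.5, 24.8 and 21.7 CPM in the smooth muscle libraries, 7.88, 9.55 and 8.58 CPM in the preadipocyte libraries, 298, 262 and 293 CPM in the intermediate libraries and 279, 259 and 249 CPM in the progenitor libraries. Intermediate and progenitor libraries overlapped and lay above both other populations, at -3.63 ± 0.13 (adjusted p = 1e-10) for smooth muscle against intermediate and -4.92 ± 0.14 (adjusted p = 4.7e-12) for preadipocyte against progenitor. Intermediate against progenitor gave 0.11 ± 0.12 (adjusted p = 0.48), which did not pass.

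Frzb (chr2:80411970-80447625), whose promoter window is shown above, had 45.0, 49.0 and 44.4 CPM in the smooth muscle libraries, 0.756, 1.93 and 2.06 CPM in the preadipocyte libraries, 68.3, 68.3 and 74.0 CPM in the intermediate libraries and 5.51, 4.04 and 5.69 CPM in the progenitor libraries. Intermediate libraries were highest, smooth muscle libraries next, and progenitor and preadipocyte libraries far lower. The log2 fold change was 4.87 ± 0.25 (adjusted p = 5.5e-10) for smooth muscle against preadipocyte, 3.18 ± 0.23 for smooth muscle against progenitor and 3.79 ± 0.23 (adjusted p = 2.4e-08) for intermediate against progenitor. Frzb and Sfrp4 were thus both high in intermediate libraries, and of the pair Frzb was higher in smooth muscle than in progenitor libraries and Sfrp4 lower (-3.51 ± 0.13 (adjusted p = 3.4e-11)).

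Sfrp1 (chr8:23411502-23449632) had 111, 124 and 149 CPM in the smooth muscle libraries, 89.8, 119.7 and 75.8 CPM in the preadipocyte libraries, 397, 372 and 368 CPM in the intermediate libraries and 555, 652 and 611 CPM in the progenitor libraries. Progenitor libraries were highest and intermediate libraries next, at -2.24 ± 0.17 (adjusted p = 2.8e-08) for smooth muscle against progenitor and -0.68 ± 0.16 (adjusted p = 0.0059) for intermediate against progenitor. Smooth muscle against preadipocyte, where libraries overlapped, gave 0.43 ± 0.16 (adjusted p = 0.026), a call lost with DESeq2 (0.30, adjusted p = 0.12), with no low-count filter (-0.00) and without any single library other than smooth muscle replicate 1 or preadipocyte replicate 2, down to 0.12 without any intermediate library or progenitor replicate 2. Sfrp2 (chr3:83766321-83774316) had 154, 132 and 154 CPM in the smooth muscle libraries, 18.6, 22.3 and 18.0 CPM in the preadipocyte libraries, 167, 150.1 and 152 CPM in the intermediate libraries and 142, 136 and 141 CPM in the progenitor libraries. It was low in preadipocyte libraries and alike in the other 3 populations, at 2.90 ± 0.13 (adjusted p = 1.7e-10) for smooth muscle against preadipocyte, and none of the 3 pairs among the others passed. Library size alone gave a higher call in smooth muscle than in intermediate (0.39) and in progenitor libraries (0.51). Sfrp5, known as an antagonist of Wnt5a in adult fat, had 6.96, 5.66 and 9.47 CPM in smooth muscle, 1.89, 1.15 and 0.613 CPM in preadipocyte, 1.07, 1.05 and 1.18 CPM in intermediate and 0.0776, 0.410 and 0.201 CPM in progenitor libraries. Smooth muscle libraries were above all others, at 4.92 ± 0.48 (adjusted p = 6.4e-07) against progenitor.

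**Figure D4:**
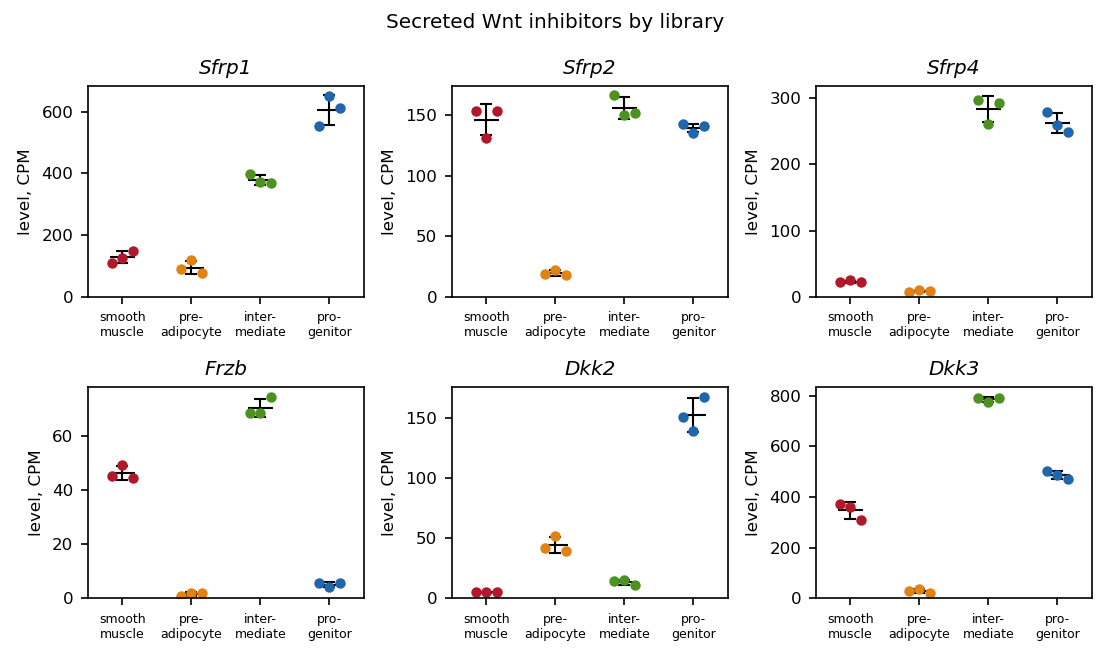
Levels of 6 secreted Wnt inhibitors in CPM after TMM scaling, with points for the 3 libraries of each population and bars for the mean and its SD. Preadipocyte libraries had the lowest mean of 5 of the 6 genes, all but Dkk2, Sfrp4 was high in intermediate and progenitor libraries, Frzb in smooth muscle and intermediate libraries, and Dkk2 in progenitor libraries.

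Of the secreted Dkk proteins, Dkk1 and Dkk2 bind Lrp5 and Lrp6. Dkk3 is a divergent relative that was listed with the inhibitors by its family name. Dkk2 (chr3:132085292-132180304) had 5.02, 4.90 and 5.65 CPM in the smooth muscle libraries, 42.1, 52.0 and 39.6 CPM in the preadipocyte libraries, 14.3, 15.04 and 10.9 CPM in the intermediate libraries and 150.3, 139 and 167 CPM in the progenitor libraries. All 4 populations were apart, with progenitor libraries highest, preadipocyte libraries next and smooth muscle libraries lowest. The log2 fold change was -4.87 ± 0.18 (adjusted p = 3.4e-11) for smooth muscle against progenitor and 1.73 ± 0.16 (adjusted p = 1.3e-07) for preadipocyte against intermediate. Dkk3 (chr7:112116017-112159057) had 373, 359.9 and 308 CPM in the smooth muscle libraries, 28.7, 36.1 and 21.4 CPM in the preadipocyte libraries, 789, 775 and 790.5 CPM in the intermediate libraries and 501, 486 and 472 CPM in the progenitor libraries. It too separated all 4 populations, with intermediate libraries highest and preadipocyte libraries lowest, at -4.77 ± 0.18 (adjusted p = 2.8e-11) for preadipocyte against intermediate. Its smaller difference of -0.49 ± 0.15 (adjusted p = 0.014) for smooth muscle against progenitor was -0.85 without any single intermediate library or without progenitor replicate 2, and was not called with library size alone, at -0.04.

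Per kilobase of exon, Dkk3 had the highest mean level of any member in smooth muscle, at 103 CPM per kb, in intermediate, at 234, and in progenitor libraries, at 145. In preadipocyte libraries Fzd4 came first at 24.0 CPM per kb, followed by Sfrp1 at 21.7. In the Dkk family Dkk2 made up 1.33% ± 0.242 of the per-length sum in smooth muscle, 58.1% ± 2.81 in preadipocyte, 1.52% ± 0.258 in intermediate and 22.1% ± 1.90 in progenitor libraries, and Dkk3 made up most of the rest. Among the Sfrp genes and Frzb, Sfrp2 held 56.2% ± 3.01 in smooth muscle libraries, and Sfrp1 held 63.5% ± 3.01 in preadipocyte and 51.7% ± 2.85 in progenitor libraries. By role, 7 of 9 tested inhibitors were higher and 2 lower in smooth muscle than in preadipocyte libraries, and 2 were higher and 6 lower in preadipocyte than in progenitor libraries. Of all genes, 40.7% were higher and 25.9% lower in the first of these comparisons and 25.1% and 25.9% in the other, and Dkk1, among the 7, reached the test only through the smooth muscle libraries. The counts for preadipocyte against progenitor were the same with DESeq2-type factors and with library size alone.

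**Figure D5:**
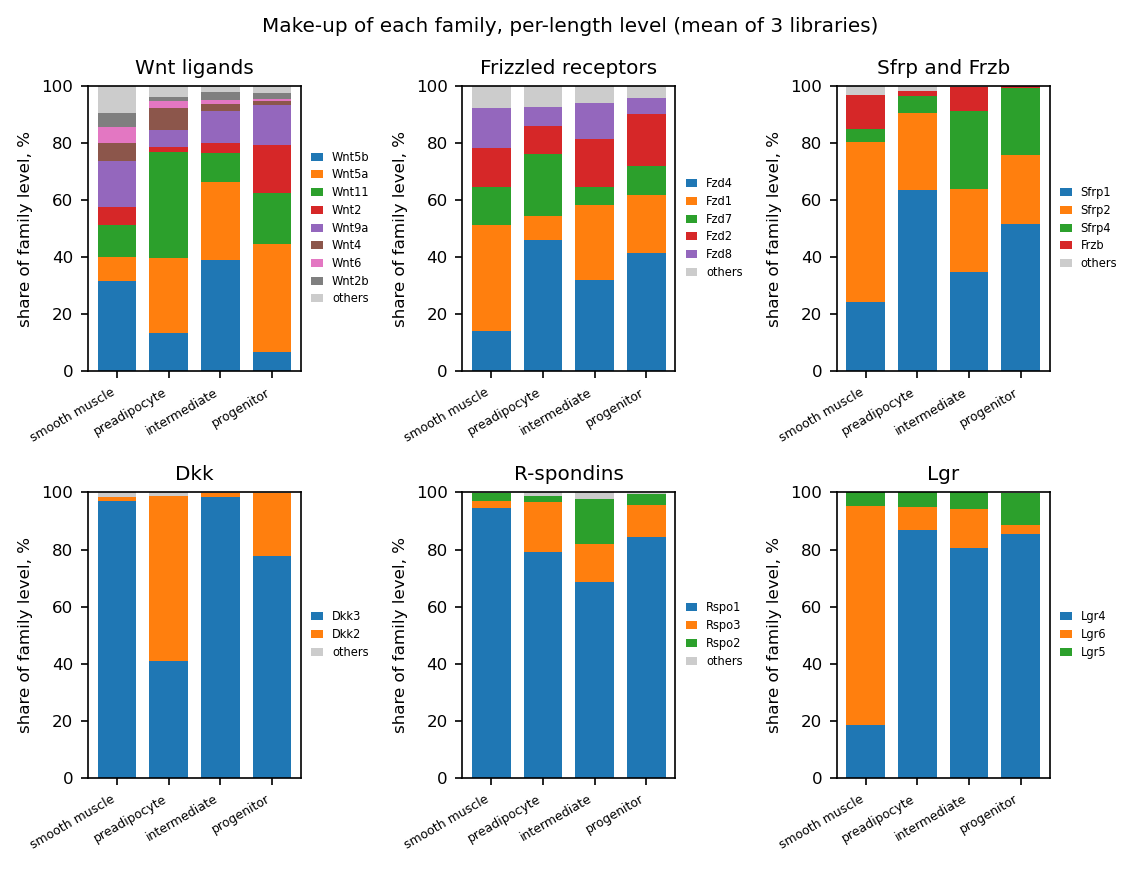
Make-up of 6 families in each population, as the share in percent of the family's summed level per kilobase of exon, mean of 3 libraries. Members under 5% in every population are pooled in grey. Lgr6 took 76.6% of the Lgr sum in smooth muscle libraries, while Lgr4 took 80.4% to 86.9% in the other populations, and Dkk2 took 58.1% of the Dkk sum in preadipocyte libraries.

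Of the 7 tested genes of the R-spondin system, Lgr6, Rspo1, Lgr5 and Rspo2 had their highest mean in smooth muscle, Lgr4 in preadipocyte, Znrf3 in intermediate and Rspo3 in progenitor libraries. R-spondins are secreted proteins that bind Lgr receptors and so keep the ubiquitin ligases Znrf3 and Rnf43 from removing Frizzled receptors. Lgr6 (chr1:134983301-135105276) had 181, 154 and 141 CPM in the smooth muscle libraries, 7.29, 6.77 and 3.23 CPM in the preadipocyte libraries, 9.71, 8.80 and 6.36 CPM in the intermediate libraries and 1.40, 0.957 and 1.27 CPM in the progenitor libraries. Every smooth muscle library was far above every other library, and the progenitor libraries were below all the rest. The log2 fold change was 7.03 ± 0.31 (adjusted p = 1.5e-10) for smooth muscle against progenitor, 4.25 ± 0.25 (adjusted p = 7.2e-09) against intermediate and 4.78 ± 0.26 (adjusted p = 8e-10) against preadipocyte. The Lgr6 share of the per-length sum of Lgr4, Lgr5 and Lgr6 was 76.6% ± 2.43 in smooth muscle, 8.05% ± 1.90 in preadipocyte, 13.9% ± 2.47 in intermediate and 3.05% ± 1.65 in progenitor libraries.

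Rspo1 had 58.3, 62.2 and 79.2 CPM in the smooth muscle libraries, 6.75, 12.6 and 6.02 CPM in the preadipocyte libraries, 5.97, 3.91 and 3.09 CPM in the intermediate libraries and 14.3, 20.9 and 25.2 CPM in the progenitor libraries. Smooth muscle libraries were above all others and progenitor libraries next, at 3.94 ± 0.32 (adjusted p = 1.3e-07) for smooth muscle against intermediate. Lgr5 had 13.5, 15.97 and 14.3 CPM in smooth muscle, 5.07, 4.11 and 5.35 CPM in preadipocyte, 3.92, 4.51 and 6.45 CPM in intermediate and 7.30, 4.24 and 9.44 CPM in progenitor libraries. It was above all others in smooth muscle libraries, at 1.56 ± 0.27 (adjusted p = 0.00034) against intermediate, and the other 3 populations overlapped. Rspo2 had 4.81, 5.28 and 5.23 CPM in smooth muscle, 0.540, 0.242 and 0.724 CPM in preadipocyte, 3.21, 1.73 and 2.63 CPM in intermediate and 3.26, 1.85 and 1.14 CPM in progenitor libraries, near the threshold for naming, and gave 3.31 ± 0.42 (adjusted p = 5.6e-06) for smooth muscle against preadipocyte. The mesothelial, neuron and Schwann cell marker sums given above were highest in the same smooth muscle libraries in which Lgr6, Rspo1, Lgr5, Sfrp5, Wnt4 and Wnt6 were high, and their part in these differences was not tested. That limit extends to the other members with their highest mean there, among them Nkd1, Tcf7, Axin2, Lef1, Wnt16, Wnt7a, Wnt7b and Dkk1.

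Lgr4 made up most of the Lgr sum in the other 3 populations. It averaged 32.9 ± 3.30 CPM in smooth muscle, 53.3 ± 18.3 CPM in preadipocyte, 40.9 ± 1.07 CPM in intermediate and 33.3 ± 12.8 CPM in progenitor libraries, and progenitor replicate 1 was low at 19.0 CPM. The overall test did not pass for Lgr4, and smooth muscle against preadipocyte gave -0.69 ± 0.26 (adjusted p = 0.028), a call lost without smooth muscle replicate 1 (adjusted p = 0.065), smooth muscle replicate 3 (adjusted p = 0.077) or preadipocyte replicate 2 (adjusted p = 0.14). Znrf3, the ligase that removes Frizzled receptors and is itself a pathway target, had 18.9, 9.48 and 12.6 CPM in smooth muscle, 20.2, 9.19 and 8.08 CPM in preadipocyte, 16.2, 15.7 and 9.54 CPM in intermediate and 5.28, 6.22 and 5.36 CPM in progenitor libraries. Progenitor libraries were below all others, at 1.28 ± 0.34 (adjusted p = 0.0054) for smooth muscle against progenitor, and none of the 3 pairs among the other populations passed. By role, 4 of 7 tested genes of this system were higher and 0 lower in smooth muscle than in intermediate libraries, against 15.7% and 13.1% of all genes. With library size alone 5 were higher and 0 lower, where 9321 of all 21285 genes were higher and 1133 lower.

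Feedback genes of the beta-catenin branch were led by Nkd1 (chr8:88521354-88594884), an inhibitor that binds Dishevelled and is induced by the pathway. It had 97.3, 97.5 and 95.5 CPM in the smooth muscle libraries, 13.5, 14.6 and 10.4 CPM in the preadipocyte libraries, 15.9, 18.4 and 14.99 CPM in the intermediate libraries and 38.3, 53.2 and 47.6 CPM in the progenitor libraries. Smooth muscle libraries were highest, progenitor libraries next, and intermediate and preadipocyte libraries lowest. The log2 fold change was 2.92 ± 0.16 (adjusted p = 1.1e-09) for smooth muscle against preadipocyte and 1.06 ± 0.15 (adjusted p = 4.1e-05) for smooth muscle against progenitor, or 0.70 without any single intermediate library. Nkd2, its relative, had 10.1, 6.49 and 7.77 CPM in smooth muscle, 6.96, 5.98 and 4.62 CPM in preadipocyte, 9.09, 8.50 and 5.91 CPM in intermediate and 3.73, 2.60 and 2.95 CPM in progenitor libraries. It was lower in progenitor libraries than in any other, at 1.39 ± 0.26 (adjusted p = 0.00037) for smooth muscle against progenitor and 0.92 without progenitor replicate 2. Tcf7, a TCF/LEF factor, had 7.24, 5.28 and 6.85 CPM in smooth muscle, 4.05, 1.99 and 1.78 CPM in preadipocyte, 3.56, 2.86 and 2.36 CPM in intermediate and 2.02, 2.19 and 2.08 CPM in progenitor libraries. Smooth muscle libraries lay above all others, at 1.62 ± 0.31 (adjusted p = 0.00048) against progenitor.

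Axin2 and Lef1, a pair of common readouts of the beta-catenin branch, stayed under the 5 CPM set for naming and are given because of that role, a choice made after their values were seen. Axin2, a scaffold of the beta-catenin destruction complex, had 3.95, 3.12 and 2.19 CPM in smooth muscle, 2.11, 2.42 and 1.34 CPM in preadipocyte, 1.07, 1.13 and 0.545 CPM in intermediate and 1.16, 0.547 and 0.737 CPM in progenitor libraries. Smooth muscle and preadipocyte libraries lay above intermediate and progenitor libraries, at 1.92 ± 0.39 (adjusted p = 0.00081) for smooth muscle against progenitor, and smooth muscle against preadipocyte did not pass (0.66 ± 0.35 (adjusted p = 0.11)). Lef1 had 3.16, 2.86 and 1.27 CPM in smooth muscle, 2.21, 1.09 and 1.56 CPM in preadipocyte, 0.356, 1.65 and 0.908 CPM in intermediate and 0.310, 0.205 and 0.268 CPM in progenitor libraries, at 3.19 ± 0.57 (adjusted p = 0.00027) for smooth muscle against progenitor. All 5 feedback and transcription genes were higher in smooth muscle than in progenitor libraries, against 30.5% of all genes, and the count was the same with both other scalings. Lef1 in smooth muscle libraries was only 1.01 to 2.02 times the background level described below and Axin2 2.77 to 3.55 times, on a background that was higher there than in progenitor libraries. These genes did not all share an order over the other populations. Nkd1 was next highest in progenitor libraries, while Axin2, Lef1, Nkd2 and Tcf7 had their lowest mean there. For Axin2 that mean, 0.816 CPM, was close to the 0.914 CPM of intermediate libraries.

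The other 19 members had a mean under 5 CPM in every population. Of these, 9 were tested, namely Fzd9, Wnt16, Wnt7a, Rspo3, Wif1, Wnt7b, Wnt10b, Wnt1 and Dkk1. The 10 that were not tested were Wnt3, Wnt3a, Wnt8a, Wnt8b, Wnt9b, Wnt10a, Fzd10, Rspo4, Dkk4 and Notum, with no library above 1.15 CPM. A tested member at such levels can pass the count filter through the 1 population where it is high. Wnt10b, a ligand known to restrain adipocyte formation, had 0.287, 0.382 and 0.353 CPM in smooth muscle, 0.0540, 0 and 0.223 CPM in preadipocyte, 0.0891, 0.226 and 0 CPM in intermediate and 2.33, 3.62 and 2.55 CPM in progenitor libraries, so that progenitor libraries were above all others. Wnt16 had 4.73, 4.07 and 4.38 CPM in smooth muscle, 0.108, 0.181 and 0.0557 CPM in preadipocyte, 0.624, 0.526 and 0.908 CPM in intermediate and 0.310, 0.137 and 0.0670 CPM in progenitor libraries, above all others in smooth muscle libraries, as were Wnt7b at 3.08, 4.39 and 2.54 CPM, Wnt7a at 1.36, 2.04 and 1.91 CPM and Dkk1 at 2.01, 4.39 and 2.83 CPM there. Wif1, an inhibitor that binds Wnts directly, had 1.58, 1.14 and 1.20 CPM in smooth muscle, 3.73, 5.14 and 2.45 CPM in preadipocyte, 2.32, 1.05 and 2.27 CPM in intermediate and 1.79, 0.684 and 1.21 CPM in progenitor libraries, and gave -1.52 ± 0.39 (adjusted p = 0.0031) for smooth muscle against preadipocyte. Rspo3 averaged 2.40 ± 0.443 CPM in smooth muscle, 2.89 ± 1.01 CPM in preadipocyte, 1.32 ± 0.214 CPM in intermediate and 4.11 ± 0.318 CPM in progenitor libraries, with progenitor libraries highest.

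Low levels in smooth muscle libraries stood on a higher floor. Olfactory and vomeronasal receptor genes, taken as genes these cells should not use, held 0.202, 0.161 and 0.143 CPM per kb there, against 0.0158, 0.00822 and 0.0377 in preadipocyte, 0.0349, 0.0720 and 0.0867 in intermediate and 0.0121, 0.0150 and 0.0262 in progenitor libraries. Wnt16 was 5.38 to 7.004 times this floor in smooth muscle libraries, Dkk1 4.10 to 11.2 times, Wnt7b 3.12 to 5.57 times and Axin2 2.77 to 3.55 times. Lef1 was 1.01 to 2.02 times the floor, Wnt1 0.332 to 3.52 times and Wnt10b 0.418 to 0.724 times. The 37 named members were at least 4.66 times this floor in every smooth muscle library.

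A fixed list of 59 other pathway genes, from secretion to nuclear factors, was tested in the same way. Of 57 tested, 53 (93.0%) differed among the populations, against 79.8% of all genes. In smooth muscle against preadipocyte libraries 38 were higher and 6 lower, against 40.7% and 25.9% of all genes, and in preadipocyte against intermediate libraries 7 were higher and 33 lower, against 26.0% and 31.1%. Their median log2 fold change was 0.94 for smooth muscle against preadipocyte, against 0.35 over all genes. Reck, a membrane protein that presents Wnt7 ligands, had 74.5, 76.3 and 61.3 CPM in smooth muscle, 31.1, 37.0 and 28.2 CPM in preadipocyte, 169, 164 and 165 CPM in intermediate and 263, 251 and 281 CPM in progenitor libraries, highest in progenitor and lowest in preadipocyte libraries. Gpc3 and Gpc6, a pair of glypicans tied at the same adjusted p in the F test, went different ways. Gpc3 had 592, 576 and 722 CPM in smooth muscle, 596, 763 and 512 CPM in preadipocyte, 2399, 2222 and 2472 CPM in intermediate and 4237, 4384 and 4411 CPM in progenitor libraries, with progenitor libraries highest and intermediate libraries next. Gpc6 had 441, 414 and 355 CPM in smooth muscle, 39.8, 50.04 and 34.1 CPM in preadipocyte, 337, 343 and 321 CPM in intermediate and 155, 135 and 159 CPM in progenitor libraries, with smooth muscle libraries on top. Dact1, which binds Dishevelled, had 50.8, 51.3 and 45.9 CPM in smooth muscle, 15.9, 18.4 and 14.4 CPM in preadipocyte, 189.6, 179 and 176 CPM in intermediate and 120.2, 129.9 and 137 CPM in progenitor libraries, with intermediate libraries on top and preadipocyte libraries lowest, at -3.49 ± 0.13 (adjusted p = 3.3e-11) for preadipocyte against intermediate. Its relative Dact3 averaged 38.6 ± 8.77 CPM in smooth muscle, 6.59 ± 4.03 CPM in preadipocyte, 78.8 ± 11.5 CPM in intermediate and 15.7 ± 9.14 CPM in progenitor libraries.

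Among planar polarity genes, Prickle1 had 66.6, 63.4 and 57.5 CPM in smooth muscle, 43.1, 69.4 and 38.9 CPM in preadipocyte, 254, 249.5 and 241 CPM in intermediate and 196, 208 and 243 CPM in progenitor libraries, with intermediate and progenitor libraries above the rest. Daam1, a formin, had 186, 198 and 155 CPM in smooth muscle, 41.9, 38.2 and 60.2 CPM in preadipocyte, 253, 240.4 and 232 CPM in intermediate and 81.3, 57.8 and 68.8 CPM in progenitor libraries, with intermediate libraries on top and preadipocyte libraries at -2.37 ± 0.18 (adjusted p = 1.8e-08) against them. The co-repressors of the Groucho family differed in order, with Tle4 averaging 33.2 ± 1.54 CPM in smooth muscle, 17.0 ± 5.38 CPM in preadipocyte, 7.55 ± 1.58 CPM in intermediate and 10.4 ± 2.52 CPM in progenitor libraries and Tle2 averaging 10.8 ± 1.12 CPM in smooth muscle, 14.9 ± 1.76 CPM in preadipocyte, 14.7 ± 2.31 CPM in intermediate and 32.7 ± 2.13 CPM in progenitor libraries. Of other known targets, Ccn4, also called Wisp1, had 115, 112 and 128 CPM in smooth muscle, 18.4, 16.7 and 10.9 CPM in preadipocyte, 469.7, 414 and 494 CPM in intermediate and 80.6, 88.8 and 87.8 CPM in progenitor libraries. All 4 populations were apart for Ccn4, with intermediate libraries highest, at -4.91 ± 0.19 (adjusted p = 3.1e-11) for preadipocyte against intermediate. Myc had 144, 142 and 196 CPM in smooth muscle, 193, 265 and 177 CPM in preadipocyte, 104, 104 and 104 CPM in intermediate and 303, 323 and 331 CPM in progenitor libraries, highest in progenitor and lowest in intermediate libraries, at -1.62 ± 0.16 (adjusted p = 3.2e-06) for intermediate against progenitor. The targets Ccn4, Myc and Nkd1 thus were highest in different populations, intermediate for Ccn4, progenitor for Myc and smooth muscle for Nkd1.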

How the data were processed

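RNA of 12 libraries, 4 sorted populations of 3 each, was amplified with an ultra-low-input poly(A) chemistry per the labels' protocols. The submitters' processing notes name STAR 2.5.2a, DESeq2 1.26.0 and the mm10 build. How reads were assigned to genes, and whether by strand, is not given in the sources used here. Tested values were the whole-number counts per gene that the authors deposited. They also deposited a normalized signal, found to equal the counts divided by 1 median-ratio factor per library, and a table of log2 values, neither of which was tested here.

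Groups came from the sample titles. Counts were filtered with filterByExpr, scaled with TMM and fitted in 1 model over all 12 libraries with edgeR 4.0.16 in R 4.3.3 (glmQLFit, glmQLFTest), with 6 pairwise contrasts and an F test of any difference. Tests were two-sided, with Benjamini-Hochberg adjustment over 21285 genes and calls at 0.05. The fit was tried on simulated counts before use. Levels are CPM after TMM, and levels per kilobase use the union exon length of GENCODE M21 on mm10, in which 58 of 58 members matched by symbol. The genes named were members with a mean of at least 5 CPM in at least 1 population, which gave 37, and, in each role group of the other pathway list, the 2 genes with the smallest p in the F test. The members and lists were chosen with earlier results of these data known.

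Alternatives in edgeR were median-ratio size factors, library size alone, omission of the low-count filter, a filter of at least 5 CPM in 3 libraries, a replicate block, fits to the 2 compared populations alone, and leaving out each library. DESeq2 1.42.0 was run as a further alternative. Subtraction of an even background per kilobase, taken from 1223 olfactory and vomeronasal receptor genes, was chosen after seeing the data. Replicate pairs differed by a chi-square per degree of freedom of 3.92 to 70.9, above sampling noise, so that every library was kept as its own sample. Preadipocyte pairs differed most, at 34.4 to 70.9, against 3.92 to 11.3 in the other populations. Reads carry no molecular identifiers, so limits for a count of 0 cover counting error alone. Of the members, 10 have exons that overlap a gene on the other strand (Fzd5, Sfrp2, Lef1, Wnt11, Rspo3, Wnt5a, Axin2, Notum, Fzd6 and Wnt7b).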

Additional observations from a re-analysis of the deposited data

How the results depend on the processing

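The 37 named members were each followed in their best-supported comparison under 20 alternatives, which gave 740 values. No value changed sign, 723 stayed on the same side of the threshold, and 17 lost their call, in Fzd7, Fzd5, Lgr4 and Fzd3. Each comparison was picked by its smallest adjusted p in these same data, which favours stable calls. The result therefore does not extend to the other comparisons of these members. Of 190 calls over all members and comparisons, DESeq2-type size factors lost 2 and gained 1, DESeq2 lost 7 and gained 1, subtraction of the even background lost 8 and gained 8, library size alone lost 14 and gained 18, and no low-count filter lost 16 and gained 8. The fit to the 2 compared populations alone lost 4 and gained 14. Leaving out a single library lost 3 to 18 calls and gained 0 to 13, with the largest loss without intermediate replicate 3.

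Under library size alone the all-gene median log2 fold change shifted by 0.49 for smooth muscle against intermediate, 0.44 for smooth muscle against progenitor, 0.43 for preadipocyte against intermediate and 0.39 for preadipocyte against progenitor. Its calls over all genes were 9321 higher and 1133 lower, 9683 and 2015, 7760 and 4233, and 7857 and 3773 for these comparisons, against 3346 and 2781, 6501 and 5024, 5540 and 6617, and 5340 and 5503 with TMM. With it 25 members were higher and 8 lower in smooth muscle than in intermediate libraries, and 9 were lower than in progenitor libraries. Of the other pathway genes, 28 were higher and 6 lower in the smooth muscle against intermediate comparison and 8 lower against progenitor. Leaving out any intermediate library or progenitor replicate 2 also shifted fold changes under TMM. The median of the per-gene shifts reached -0.32 for smooth muscle against preadipocyte and -0.36 for smooth muscle against progenitor.

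With no low-count filter 7 members were lower in smooth muscle than in preadipocyte libraries, and 26 other pathway genes lower in smooth muscle than in intermediate libraries, also 26 in the fit to those 2 populations alone. Over all 36512 genes without the filter, 7812 were lower in the first comparison and 4435 in the second. The fit to those 2 populations alone gave 4245 lower of 19320 genes. With at least 5 CPM in 3 libraries, which leaves fewer genes, 3 members were higher in preadipocyte than in intermediate libraries, 5 higher in preadipocyte than in progenitor libraries, and 4 other pathway genes lower in intermediate than in progenitor libraries. Of all 12659 genes left, 4748 were higher in preadipocyte than in intermediate and 5017 higher than in progenitor libraries. Lower in intermediate than in progenitor libraries were 2058 of them. For the other moved counts the cause was not tested. Leaving out single libraries gave 3 to 7 members lower in smooth muscle than in preadipocyte and 2 to 7 higher in preadipocyte than in intermediate libraries. Over all genes these fits gave 5007 to 7185 and 5253 to 5988. Among other pathway genes leaving out single libraries gave 10 to 24 lower in smooth muscle than in intermediate and 13 to 25 higher in intermediate than in progenitor libraries. Over all genes it was 2063 to 4207 and 1493 to 4054.

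Of 18 same-numbered pairs 6 correlated above 0.1, up to 0.21, and 5 of 12 libraries correlated best with their own number. With 3 libraries a population these counts cannot decide whether same-numbered libraries shared a litter or sort. The fit with the replicate block lost 0 member calls and gained 4, Ryk for smooth muscle against preadipocyte (adjusted p = 0.029) and against progenitor (adjusted p = 0.048), Rspo3 for smooth muscle against intermediate (adjusted p = 0.040) and Lgr6 for preadipocyte against intermediate (adjusted p = 0.029). With 3 libraries a population, members under about 5 CPM rest on few counts, and in smooth muscle libraries on a higher floor.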

Other observations

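Genes that make and export Wnts were present in all 4 populations. The following were picked after their values were seen. Wls, the carrier that takes Wnts to the cell surface, had 259, 288 and 261 CPM in smooth muscle, 122, 161 and 94.3 CPM in preadipocyte, 215, 192 and 196 CPM in intermediate and 249, 217 and 246 CPM in progenitor libraries. It was lower in preadipocyte than in progenitor libraries, with a log2 fold change of -0.92 ± 0.16 (adjusted p = 0.00016) by edgeR's quasi-likelihood test. Every smooth muscle library lay above every progenitor library, at 259 CPM or more against 249 CPM or less. Porcn, the enzyme that adds the lipid to Wnts, had 10.3, 8.46 and 10.2 CPM in smooth muscle, 5.02, 4.90 and 4.85 CPM in preadipocyte, 8.91, 8.20 and 8.99 CPM in intermediate and 10.9, 10.7 and 9.04 CPM in progenitor libraries. Every preadipocyte library was below every other library, at -1.05 ± 0.17 (adjusted p = 0.0001) for preadipocyte against progenitor.

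Ctnnb1, which encodes beta-catenin, had 329, 330.5 and 265 CPM in smooth muscle, 233, 341 and 192 CPM in preadipocyte, 403, 372 and 363 CPM in intermediate and 316, 303 and 283 CPM in progenitor libraries. Of its 6 comparisons, preadipocyte against intermediate alone passed the test, at -0.57 ± 0.17 (adjusted p = 0.011). Rnf43, the ubiquitin ligase related to Znrf3 and likewise a known target of the pathway, had 1.94, 2.23 and 1.34 CPM in smooth muscle, 1.13, 0.907 and 1.89 CPM in preadipocyte, 0.802, 0.902 and 1.09 CPM in intermediate and 0.310, 0.205 and 0.536 CPM in progenitor libraries. Smooth muscle and preadipocyte libraries lay above the progenitor libraries, at 2.36 ± 0.45 (adjusted p = 0.00052) for smooth muscle against progenitor, the direction also seen for Znrf3, though these levels are low.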
